A study of Mus musculus with 6 samples.

Results

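Lung RNA of 10 genes that carry or build chondroitin sulfate and dermatan sulfate was compared between saline- and rhTM-treated mice after LPS. They were taken as a list of names, chosen with earlier results of these data known, and were 10 of the 22911 genes named on the array. They comprised 4 core proteins (Vcan, Dcn, Bgn and Srgn), 4 enzymes of the linkage region and the chain (Xylt1, Xylt2, Chsy1 and Csgalnact1) and 2 sulfotransferases (Chst11 and Chst15). Each gene was read from its probe with the highest mean signal over the 6 arrays. All 10 were well above background on every array and entered the test.

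Male C57BL6 mice, 10 weeks of age, were kept without food for 16 h and then injected i.p. with LPS at 20 mg per kg, which produces endotoxaemia with lung injury. At 3 h and 24 h they received either the control injection or recombinant human thrombomodulin (rhTM, 30 mg per kg), a soluble form of an anticoagulant receptor of endothelial cells. Lungs were taken at 30 h from 3 mice of each group, and each mouse had its own 1-colour array. Every animal had received LPS, so no lung without endotoxin was among the arrays, and only animals alive at 30 h could be measured. The control is called saline in the labels and in the array methods, and PBS in the general animal methods. Labels and methods also name different RNA kits. Checked against the labelled tissue, all 8 listed markers of alveolar epithelium were well above background on all 6 arrays.

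The arrays of 2 mice have an unsettled assignment. In the authors' table of processed values, the columns of saline replicate 1 and rhTM replicate 2 held each other's scanner values. Across the exchange 99.9% of probes were equal to within 0.1%, against 0.138% and 0.136% for the column and scanner output of the same label. The scanner output was used as labelled, and values by the table are given beside it. By the scanner output, slide 1 held saline replicates 2 and 3 and rhTM replicates 1 and 2, and slide 2 held saline replicate 1 and rhTM replicate 3. By the table, slide 2 held 2 rhTM arrays and no saline array. On each array 36002 to 40503 probes were well above background. The spike-in slope was 0.826 on saline replicate 1 and 1.07 to 1.09 on the other arrays. The highest value among the 6 arrays fell on rhTM replicate 1 for 29.8% of the genes tested, and on each of the other arrays for 6.89% to 20.6%. With 3 arrays per group, the number of arrays limits the precision of every value. In whole lung, fewer cells of a type and less RNA per cell cannot be told apart.

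Chondroitin sulfate is a sugar chain built on serine residues of a core protein. Xylosyltransferases start a short linkage region, further enzymes add alternating N-acetylgalactosamine and glucuronic acid, and sulfotransferases place sulfate on defined positions. An epimerase that converts glucuronic acid to iduronic acid turns the chain into dermatan sulfate. In lung these chains belong to the extracellular matrix around vessels and airways, to the endothelial glycocalyx and to the secretory granules of blood-derived cells.

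For the 10 genes the comparison asked whether lungs of rhTM-treated mice differed from those of saline-treated mice in the RNA of this pathway. In limma's moderated test, with p-values adjusted over 16370 genes by Benjamini-Hochberg, none of the 10 passed, each with an adjusted p of 0.9999, and 0% of all genes passed. At an unadjusted p under 0.05 there were 0 of the 10, against 1.87% of all genes, and the methods' t-test also left 0. Of the 10, 5 had the higher mean with rhTM and 5 the lower, whereas 50.7% of all genes had the higher mean with rhTM. The median log2 difference, rhTM minus saline, was 0.016 for the 10 and 0.0026 for all genes. In 0 of the 10 were the groups without overlap, which was so for 5.52% of all genes, 2.95% higher and 2.57% lower with rhTM. An exact two-sided permutation test of 3 arrays against 3 cannot go below 0.1.

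By the authors' table, again 0 of the 10 passed the adjustment in limma, with 0% of 16320 genes. Dcn was the 1 gene of the 10 at an unadjusted p under 0.05, against 14% of all genes, and also the 1 whose groups did not overlap, against 21.7% of all genes. There, 5 of the 10 had the higher mean with rhTM, as had 46% of all genes. The median log2 difference was 0.051 for the 10 and -0.025 for all genes.

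**Figure D1:**
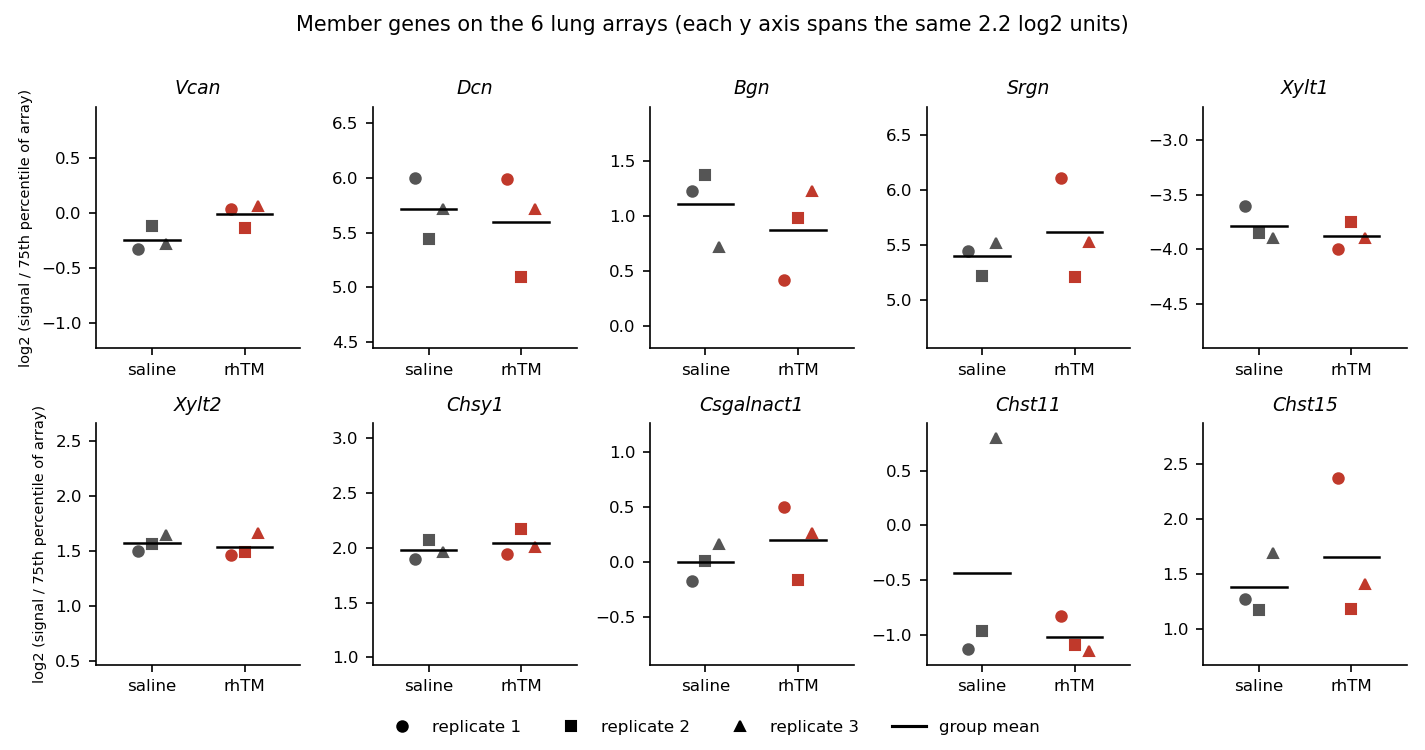
Log2 signal over the 75th percentile of the array (y axis, 1 panel per gene, each spanning the same number of log2 units) for the 3 saline and 3 rhTM arrays, by the scanner output; symbols mark the replicate and bars the group mean. In every panel the groups overlap, and for Chst11 saline replicate 3 at 0.80 stands apart from the other arrays, which lie between -1.14 and -0.82.

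Among the core proteins, Vcan encodes versican, the large hyaluronan-binding proteoglycan of the provisional matrix. Its log2 signal relative to the array's 75th percentile was -0.33, -0.12 and -0.28 on saline replicates 1, 2 and 3, and 0.04, -0.14 and 0.07 on rhTM replicates 1, 2 and 3. The overlap of the groups came from rhTM replicate 2, which lay just below saline replicate 2, whereas the other rhTM arrays lay above every saline array. In linear signal Vcan was at 0.845 ± 0.0664 times the 75th percentile with saline and 0.994 ± 0.0741 times with rhTM (SD, n = 3 each). Between the groups the log2 difference was 0.23, with a standard error of 0.12 and a 95% interval of -0.06 to 0.53 in limma (p = 0.103 unadjusted, exact permutation p = 0.2). It was 0.15 within slide 1 and 0.40 within slide 2, where each group had 1 array, and 0.10 by the authors' table. Versican RNA is spliced into several forms, and the array held 3 probes for the gene. The dimmer probes gave log2 differences of -0.08 and 0.23, so the probes disagreed in sign.

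Dcn encodes decorin, a small leucine-rich proteoglycan that binds collagen fibrils. Its log2 signal was 5.996, 5.44 and 5.71 on the saline arrays and 5.99, 5.09 and 5.72 on the rhTM arrays, in the order of the replicates. The lowest value lay on rhTM replicate 2 and the highest on saline replicate 1, which are the 2 arrays whose assignment is unsettled. As labelled by the scanner output, the linear signal was 53.2 ± 10.2 times the 75th percentile with saline and 50.1 ± 14.9 times with rhTM (SD, n = 3 each), and the log2 difference was -0.12 (SE 0.26, 95% interval -0.74 to 0.50, exact permutation p = 0.8). Within slide 1 it was -0.03 and within slide 2 -0.28, and it was 0.024 without saline replicate 1 and 0.14 without rhTM replicate 2. By the authors' table the saline arrays stood at 5.09, 5.44 and 5.71 and the rhTM arrays at 5.99, 5.996 and 5.72, so that the groups did not overlap and rhTM was higher. The closest of these, rhTM replicate 3 and saline replicate 3, were nearly level. The difference then came to 0.49 on the log2 scale (SE 0.18, 95% interval 0.06 to 0.92), with an unadjusted p of 0.0324 and an adjusted p of 0.333 in limma and an exact permutation p of 0.1, and the linear signal was 43.3 ± 9.14 against 60.0 ± 6.43 times the 75th percentile (SD, n = 3 each). With both arrays left out it was 0.28. The direction for Dcn thus turned with the assignment.

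Because decorin is a fibroblast product, the fibroblast markers are given beside it. All 10 listed markers were measured, and by the scanner output 8 of them had the higher mean with rhTM. Their summed level, in multiples of the 75th percentile, was 71.8 to 86.8 on the saline arrays and 64.1 to 136 on the rhTM arrays, lowest on rhTM replicate 1 and highest on rhTM replicate 3. According to that table, 5 of the 10 had the higher mean, and the ranges were 71.8 to 99.1 and 64.1 to 136. The low sum on rhTM replicate 1 came mostly from collagen genes, with Col1a2 at 4.11, Col3a1 at 2.995 and Col1a1 at 2.11 in log2 signal, each its lowest of the 6 arrays. Pdgfra at 4.59, Lum at -1.095 and Pi16 at 2.40 were at their highest on the same array, so the markers went both ways there. Dcn stood at 5.99 on that array, close to its highest value. The part of fibroblast content in the Dcn values was not tested.

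Bgn encodes biglycan, the close relative of decorin, which can also signal through Toll-like receptors once released from matrix. On the saline arrays its log2 signal was 1.23, 1.37 and 0.71, and on the rhTM arrays 0.41, 0.98 and 1.23. Saline replicate 3 and rhTM replicate 1 were low and the other four arrays stood together near or above 1. Between the groups the log2 difference was -0.23 (SE 0.26, 95% interval -0.85 to 0.39, exact permutation p = 0.5), from 2.19 ± 0.492 to 1.88 ± 0.510 times the 75th percentile (SD, n = 3 each). It was -0.34 within slide 1, -0.0014 within slide 2, 0.00030 without rhTM replicate 1 and -0.07 by the authors' table. Bgn was lowest on rhTM replicate 1, the array on which the fibroblast markers went both ways, and their part in the Bgn values was not tested. Of Vcan, Dcn, Bgn and Srgn, Bgn had the largest SD over the 6 arrays, 0.37 on the log2 scale. The genes closest to its array-to-array pattern, each centred on its own mean, were Fanci at a root mean square difference of 0.07, Hspa1a at 0.08 and Phgdh at 0.08 log2 units over 6 arrays. Fanci belongs to a DNA crosslink repair complex, Hspa1a is an inducible heat shock protein and Phgdh opens serine synthesis.

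Srgn encodes serglycin, the proteoglycan of secretory granules in mast cells, neutrophils, platelets and other cells of the blood lineage. Its log2 signal was 5.44, 5.22 and 5.52 on the saline arrays and 6.11, 5.20 and 5.53 on the rhTM arrays. In linear signal, the saline arrays read 43.5, 37.3 and 45.9 times the 75th percentile and the rhTM arrays 69.0, 36.8 and 46.1 times. A single array, rhTM replicate 1, stood above the rest, and the other rhTM arrays lay within or just beside the saline range. The log2 difference was 0.22 (SE 0.24, 95% interval -0.35 to 0.79, exact permutation p = 0.6), and without rhTM replicate 1 it was -0.03. Within slide 1 it was 0.29 and within slide 2 0.08. By the authors' table it was 0.38 with an adjusted p of 0.430 in limma.

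Chst15, described with the sulfotransferases, adds a further sulfate to chondroitin 4-sulfate and so makes the highly sulfated chains that serglycin carries in mast cells. Srgn and Chst15 lay highest on the same array, rhTM replicate 1, on which 29.8% of all genes tested were also highest. The promoter windows of both genes are shown, from RefSeq on GRCm38.p6, 250 bases before to 50 bases after the start. Capitals mark the single match to any of 7 motifs searched. The Srgn window is chr10:62527396-62527695 and the Chst15 window chr7:132317179-132317478, both on the minus strand.
Srgn: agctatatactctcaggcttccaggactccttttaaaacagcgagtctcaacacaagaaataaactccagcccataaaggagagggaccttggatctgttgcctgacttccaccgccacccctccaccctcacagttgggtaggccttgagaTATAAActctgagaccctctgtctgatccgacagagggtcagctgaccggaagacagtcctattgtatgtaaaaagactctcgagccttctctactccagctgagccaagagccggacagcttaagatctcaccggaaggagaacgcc
Chst15: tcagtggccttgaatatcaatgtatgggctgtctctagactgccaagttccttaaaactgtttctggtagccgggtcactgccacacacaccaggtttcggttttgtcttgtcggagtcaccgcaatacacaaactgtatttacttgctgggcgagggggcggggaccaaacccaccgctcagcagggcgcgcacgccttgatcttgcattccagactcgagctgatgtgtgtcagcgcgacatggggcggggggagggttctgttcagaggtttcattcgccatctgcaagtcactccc

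The motifs were the TATA box TATAAA, AP-1 TGANTCA, CRE TGACGTCA, NF-kappaB (GGGA and CC with any 4 bases between), ETS CCGGAAGT, PU.1 GAGGAAGT and the E-box CACGTG, each read on both strands. Of 32851 promoter windows of this length, 13.6% held TATAAA, 7.81% TGANTCA, 1.79% TGACGTCA, 20.7% the NF-kappaB letters, 3.89% CCGGAAGT, 3.2% GAGGAAGT and 7.15% CACGTG. In the Srgn window TATAAA lay at -98 to -93 from the start, and the Chst15 window had no match. A further listed start of each gene also had none. Among the other members in the promoter table, Chsy1 held 1 E-box match, and Vcan, Bgn, Xylt2 and Chst11 held none. Of the 10 members 7 matched the promoter table, all but Dcn, Xylt1 and Csgalnact1. A match describes the letters of a window and no more.

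Beside Srgn, the marker lists of granulated blood cells are given. The summed level of the mast cell and basophil markers was 17.7, 19.2 and 19.9 times the 75th percentile on the saline arrays and 30.8, 17.1 and 22.3 times on the rhTM arrays. Of the 8 listed, 6 were tested and 4 of these had the higher mean with rhTM. Ms4a2, a subunit of the IgE receptor, was below that mark on all 6 arrays, and Mcpt8, a basophil protease, was well above background on 1 array of each group. The platelet markers summed to 10.5, 14.4 and 14.9 times on the saline arrays and to 27.7, 13.9 and 13.8 times on the rhTM arrays, with 2 of 6 higher in mean. Both sums were highest on rhTM replicate 1, as was Srgn. Of the mast cell and basophil sum there, Hdc, which makes histamine, gave 23.6 and Kit 6.67. On that array Hdc, Kit and the dim Mcpt8 and Ms4a2 had their highest value of the 6 arrays, the protease gene Mcpt4 its second highest, and Cpa3 and Cma1 their second lowest, with Tpsb2 in between. Of the platelet sum there, Pf4 gave 24.7. Pf4, Ppbp, Gp9 and Treml1 had their highest value on that array, and Itga2b its second highest, with Gp1bb below that rank. The neutrophil markers summed to 942 to 1099 times with saline and 957 to 1225 times with rhTM, highest again on rhTM replicate 1, with 7 of 9 higher in mean. By the table the neutrophil ranges were 942 to 1046 and 1088 to 1225. The monocyte and macrophage markers lay at 625 to 635 and 583 to 643 times, with 3 of 10 higher in mean, and by the table at 625 to 643 and 583 to 627, with 1 of 10 higher. Also by the table, the mast cell and basophil sums were 17.1 to 19.9 and 17.7 to 30.8, with 5 of 6 higher, and the platelet sums 13.9 to 14.9 and 10.5 to 27.7, with 2 of 6 higher. The part of these cells in the Srgn values was not tested.

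**Figure D2:**
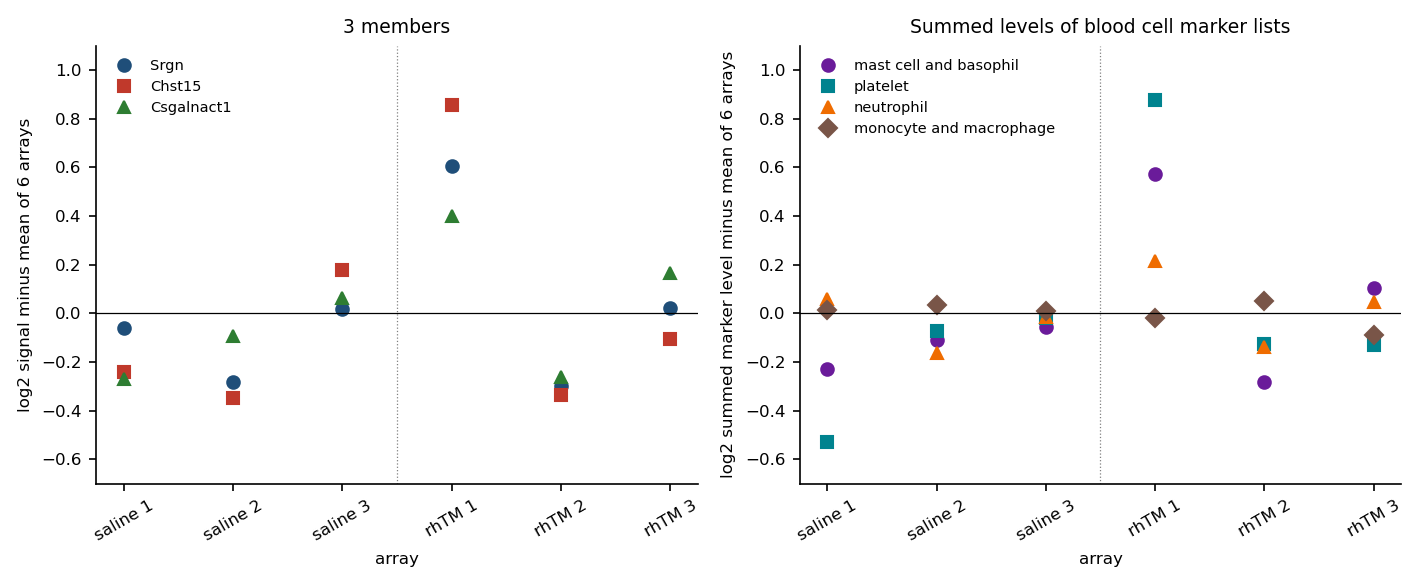
Left, log2 signal of Srgn, Chst15 and Csgalnact1 on each of the 6 arrays minus the gene's mean over the 6 arrays; right, the log2 summed level of 4 blood cell marker lists, centred in the same way. On rhTM replicate 1 the 3 genes and the sums of the mast cell and basophil, platelet and neutrophil lists are at their highest, the first of these sums mostly through Hdc (23.6 of 30.8), and the monocyte and macrophage sum is not.

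Of the enzymes that begin the chain, Xylt1 and Xylt2 encode the xylosyltransferases that place the first sugar on the core protein. The Xylt1 log2 signal was -3.61, -3.85 and -3.89 on the saline arrays and -4.00, -3.75 and -3.90 on the rhTM arrays. The groups overlapped, and the log2 difference was -0.10 (95% interval -0.42 to 0.22, exact permutation p = 0.4), with -0.0034 within slide 1, -0.29 within slide 2 and -0.0032 by the table. Leaving out 1 array gave -0.011 without saline replicate 1, -0.042 without rhTM replicate 1 and -0.16 without rhTM replicate 2. Xylt2 read 1.50, 1.57 and 1.65 on the saline arrays and 1.46, 1.49 and 1.66 on the rhTM arrays. Its SD over all 6 arrays was 0.08, and 6.23% of genes had a smaller one. The log2 difference of Xylt2 was -0.03 (95% interval -0.31 to 0.25, exact permutation p = 0.7), and its second probe gave -0.15. Within slide 1 it was -0.13 and within slide 2 it was 0.16, so the slides differed in sign, and by the table it was -0.03. Without saline replicate 3 or without rhTM replicate 1 it was 0.0065 or 0.0064.

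Chsy1 encodes a chondroitin synthase that extends the chain. Its log2 signal was 1.89, 2.07 and 1.96 on the saline arrays and 1.94, 2.17 and 2.01 on the rhTM arrays, so the arrays were again close together. For Chsy1 the log2 difference was 0.06 (95% interval -0.23 to 0.36, exact permutation p = 0.6), and it was 0.04 within slide 1 and 0.11 within slide 2. By the table the sign turned, to -0.12, and without rhTM replicate 2 it was -0.00085. For Xylt1, Xylt2 and Chsy1, the intervals by either assignment left room for changes no larger than 0.42 log2 units in either direction.

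Csgalnact1 encodes the N-acetylgalactosaminyltransferase that commits the linkage region to chondroitin rather than to heparan sulfate. Its log2 signal was -0.17, 0.01 and 0.16 on the saline arrays and 0.50, -0.16 and 0.27 on the rhTM arrays. The lowest value of each group was almost the same, and rhTM replicate 1 was highest. The log2 difference was 0.20 (SE 0.20, 95% interval -0.26 to 0.67, exact permutation p = 0.4), from 1.00 ± 0.115 to 1.17 ± 0.260 times the 75th percentile (SD, n = 3 each). It was 0.08 within slide 1, 0.44 within slide 2 and 0.19 by the table. Leaving out 1 array moved it to 0.054 without rhTM replicate 1, 0.38 without rhTM replicate 2 and 0.12 without saline replicate 1. Vcan and Csgalnact1 kept the higher mean with rhTM in each of the 26 alternatives run, with sizes from 0.034 to 0.40 for Vcan and 0.044 to 0.49 for Csgalnact1, and neither passed the adjustment in any of them. The alternatives reused the same arrays, so a constant sign is not independent support, and a dimmer Vcan probe gave -0.08.

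Chst11 encodes the main chondroitin 4-O-sulfotransferase. Its log2 signal was -1.13, -0.96 and 0.80 on the saline arrays and -0.82, -1.09 and -1.14 on the rhTM arrays. Saline replicate 3 alone was high, and the other five arrays lay close together. The linear signal was 0.903 ± 0.724 times the 75th percentile with saline and 0.496 ± 0.0602 times with rhTM (SD, n = 3 each), and the log2 difference of -0.59 had a 95% interval of -1.76 to 0.58 (exact permutation p = 0.6). Without saline replicate 3 it was 0.03. The second, dimmer Chst11 probe did not show the high value: it read -2.83, -2.80 and -3.14 on the saline arrays, lowest on saline replicate 3, and -3.18, -3.26 and -3.03 on the rhTM arrays, with a log2 difference of -0.23 (exact permutation p = 0.2). Within slide 1, which held saline replicate 3, the brighter probe gave -0.87, within slide 2 -0.01, and by the table -0.61.

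Chst15 read 1.27, 1.17 and 1.69 on the saline arrays and 2.37, 1.18 and 1.41 on the rhTM arrays. As for Srgn, rhTM replicate 1 stood above all other arrays and rhTM replicate 2 was near the bottom. In linear signal the groups were at 2.63 ± 0.527 and 3.36 ± 1.58 times the 75th percentile (SD, n = 3 each). The log2 difference was 0.27 (SE 0.32, 95% interval -0.50 to 1.04, exact permutation p = 0.6), and -0.08 without rhTM replicate 1. It was 0.34 within slide 1, 0.14 within slide 2 and 0.34 by the table.

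**Figure D3:**
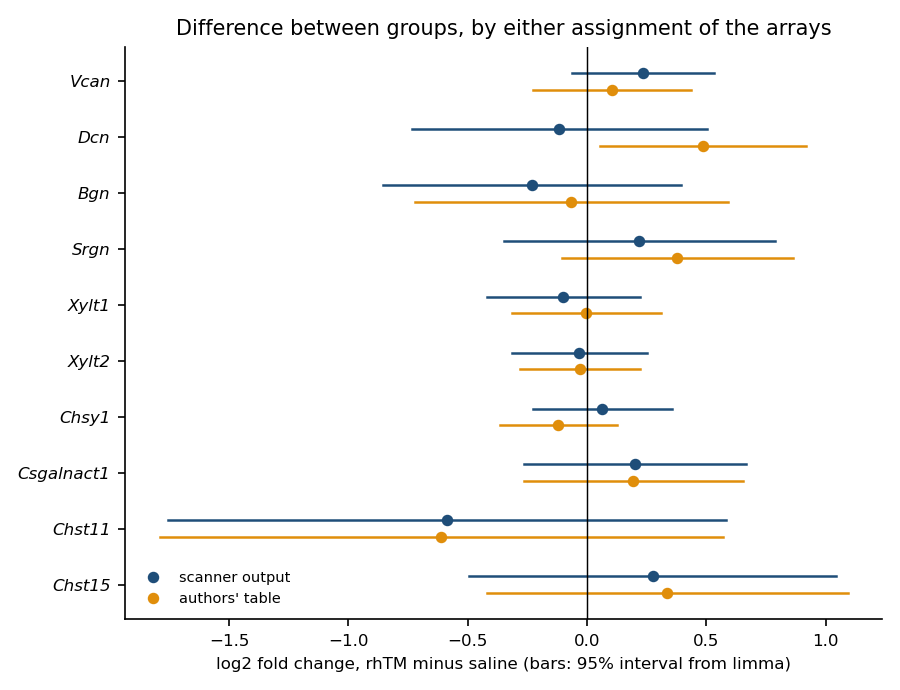
Log2 difference, rhTM minus saline, of the 10 genes (x axis) with the 95% interval of limma, under both assignments of the arrays. Every interval spans 0 except that of Dcn by the table, at 0.49, and Dcn and Chsy1 lie on opposite sides of 0 by the 2 assignments.

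Among themselves, the 10 genes followed no single order of arrays. The highest of the 6 values lay on rhTM replicate 1 for 3 genes (Srgn, Csgalnact1 and Chst15), on rhTM replicate 3 and saline replicate 1 for 2 each, and on the other arrays for 1 each. Of all genes tested, 29.8% were highest on rhTM replicate 1, so the 3 of 10 lay near that share. Centred on their own means, Srgn and Chst15 differed by a root mean square of 0.15 log2 units over the 6 arrays, Srgn and Csgalnact1 by 0.16, and Csgalnact1 and Chst15 by 0.25. The 45 pairs of the 10 genes ranged from 0.12, for Xylt2 and Chsy1, which both varied little, to 0.90, for Bgn and Chst11. The SD over the 6 arrays ran from 0.08 for Xylt2 to 0.76 for Chst11, and its median over all genes was 0.20. It was above that median for Dcn, Bgn, Srgn, Csgalnact1, Chst11 and Chst15, and below it for Vcan, Xylt1, Xylt2 and Chsy1.

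The other genes of the pathway were taken from a list of 48, of which 47 were on the array and 40 were tested. None passed the adjustment in limma, and 1 was at an unadjusted p under 0.05, against 1.87% of all genes. The groups did not overlap in 3, all higher with rhTM. Of all genes, 5.52% did not overlap in either direction and 2.95% were higher with rhTM. Means were higher for 20 and lower for 20, with a median log2 difference of 0.0039. By the table, 17 were higher and 23 lower, with a median of -0.059. There, 3 were at an unadjusted p under 0.05 in limma, against 14% of all genes. The core protein genes Acan (aggrecan), Epyc and Spock3 and the link protein gene Hapln1 did not reach well above background on all 6 arrays.

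Of 9 other core proteins tested, 3 had the higher mean with rhTM, and the median log2 difference was -0.25. Csf1, a macrophage growth factor that exists partly as a proteoglycan, had a log2 difference of -0.54. It was -0.14 without rhTM replicate 1 and -0.94 without rhTM replicate 2. By the table it was -0.75, with -1.04 to -0.40 over the arrays left out in turn. The brain proteoglycan gene Cspg5 had a log2 difference of 0.57 as scanned. The Cspg5 value came from rhTM replicate 3 alone, at -2.24, with every other array at or below -4.16, and was -0.17 without that array. With normexp the Cspg5 difference was 0.12. For the 5 genes of the linkage region, which encode glycosyltransferases, a kinase and a phosphatase, 1 mean was higher and the median was -0.12. Chain building (3 tested, 2 higher) and the epimerases (2 tested, 1 higher) had medians of 0.02 and -0.03. By the table these were -0.0023, with 1 higher, and -0.21, with 0 higher.

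For the 6 other sulfotransferases tested, 2 means were higher and the median log2 difference was -0.09. Chst3, a chondroitin 6-O-sulfotransferase, read 0.15, 1.04 and 0.88 on the saline arrays and -0.92, 1.16 and -0.39 on the rhTM arrays. Its lowest values were on rhTM replicates 1 and 3 and its highest on rhTM replicate 2, and the log2 difference was -0.74 (exact permutation p = 0.4). It was -0.30 without rhTM replicate 1 and -1.34 without rhTM replicate 2. By the table the groups did not overlap, rhTM being lower, and the difference was -1.41, with an adjusted p of 0.314 in limma. The 7 genes of precursor and sulfate supply had 4 higher means and a median of 0.11. In that list Bpnt2, a Golgi phosphatase that clears a by-product of sulfation, had a log2 difference of 0.25, and its groups did not overlap as scanned but did by the table, where it was 0.19.

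**Figure D4:**
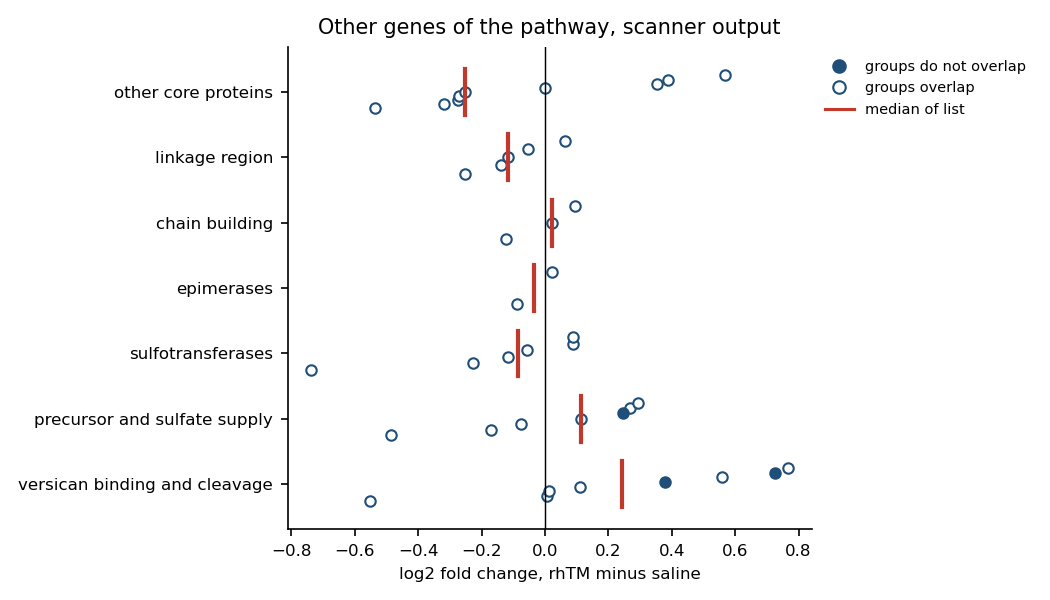
Log2 difference, rhTM minus saline, of the 40 tested pathway genes (x axis) by list, from the scanner output; filled points are genes whose groups do not overlap and red bars the list's median. The 3 filled points are Bpnt2 at 0.25, Adamts9 at 0.38 and Adamts1 at 0.73, and the medians run from -0.25 to 0.24.

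The list of genes whose products bind or cleave versican had 8 tested members, 7 of them with the higher mean, and a median log2 difference of 0.24. Of the 7, Adamts15 at 0.0079 and Adamts20 at 0.013 hardly differed between the groups. By the table, 6 of the 8 had the higher mean and the median was 0.44. The summed level of the list was 20.9 to 24.0 times the 75th percentile on the saline arrays and 27.7 to 30.3 times on the rhTM arrays. By the table these ranges overlapped, at 23.6 to 27.7 and 20.9 to 30.3, so the separation rested on the assignment of the 2 exchanged arrays. Most of the sum was Adamts15 and Adamts1, so it says little of the other genes in the list. As scanned, Adamts15 was highest on rhTM replicate 2, where it gave 18.1 of the 27.7, and lowest on rhTM replicate 1. There Adamts1 gave 10.4 and Adamts4 4.98 of the 30.3, the highest value of each over the 6 arrays. Adamts1, a secreted protease that cleaves versican, read 2.13, 2.13 and 2.16 on the saline arrays and 3.38, 2.25 and 2.96 on the rhTM arrays. The saline arrays were nearly equal and all of the rhTM arrays lay above them, with a log2 difference of 0.73 (SE 0.27, unadjusted p = 0.0338 and adjusted p = 0.9999 in limma, exact permutation p = 0.1). By the table the difference was 0.65 and the groups overlapped. As scanned it was 0.47 without rhTM replicate 1.

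Adamts9, of the same protease family, read 1.40, 1.48 and 1.47 with saline and 1.57, 1.80 and 2.12 with rhTM. The groups did not overlap and rhTM was higher by 0.38 on the log2 scale, or by 0.23 without rhTM replicate 3, whereas by the table the difference was 0.11 with overlapping groups. Adamts4, also a versican-cleaving protease, read 0.34, 0.07 and 0.10 with saline and 2.32, -0.20 and 0.70 with rhTM. Here rhTM replicate 1 was far above the rest, and the log2 difference of 0.77 was 0.08 without it and 1.34 without rhTM replicate 2. By the table the groups of Adamts4 did not overlap, and the difference was 1.13 with an adjusted p of 0.367 in limma, and 0.53 without rhTM replicate 1.

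Tnfaip6 encodes a hyaluronan-binding protein induced in inflammation. Its log2 signal was -2.24, -3.01 and -3.62 on the saline arrays and -2.07, -3.18 and -1.95 on the rhTM arrays. The groups overlapped through saline replicate 1, which was high, and rhTM replicate 2, which was low, again the 2 arrays of unsettled assignment. The log2 difference was 0.56 (exact permutation p = 0.3), with 0.23 to 0.95 over the arrays left out in turn, lowest without saline replicate 3 and highest without rhTM replicate 2, and by the table it was 1.18 with no overlap and an adjusted p of 0.314 in limma. For Adamts5 the log2 difference was -0.55 as scanned and 0.45 by the table. Adamts15 stood at 0.0079 and -0.39, its groups not overlapping by the table, and Papss1, which makes the sulfate donor, at -0.08 and -0.20, likewise without overlap by the table. As scanned, Adamts15 was at -0.099 without saline replicate 1 and -0.18 without rhTM replicate 2, and Papss1 at 0.029 without rhTM replicate 1. Adamts5 was at -0.16 with normexp and at -0.077 with both exchanged arrays left out. Groups taken from the table did not overlap for 5 pathway genes, 2 higher and 3 lower with rhTM, where 9.68% of all genes were higher and 12% lower.

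**Figure D5:**
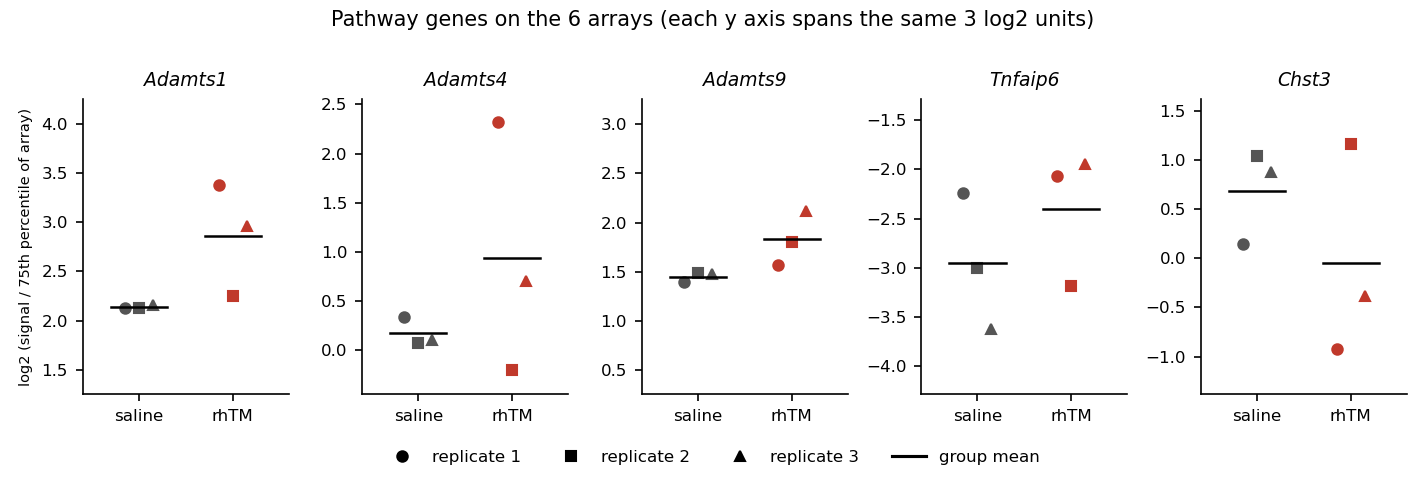
Log2 signal over the 75th percentile of the array (y axis, each panel spanning the same number of log2 units) of Adamts1, Adamts4, Adamts9, Tnfaip6 and Chst3 on the 3 saline and 3 rhTM arrays, by the scanner output; symbols mark the replicate and bars the group mean. Adamts1 and Adamts9 show no overlap, while the Adamts4 mean is set by rhTM replicate 1 at 2.32.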

How the data were processed

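Lung RNA of 3 saline- and 3 rhTM-treated mice was hybridised to Agilent SurePrint G3 Mouse arrays in 1 colour, and samples were grouped by their labels. The authors deposited scanner output, whose processed signal is an intensity corrected for background within each array, and a table of the same intensity values. The file headers name Feature Extraction 10.7.3.1 and the submitters' processing notes 9.1.

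From the deposited intensity, control spots were removed and spots of a probe averaged, and 398 of 56605 probes were dropped because an array had flagged all their spots as outliers. Log2 signals were scaled by subtracting each array's 75th percentile. Accessions were matched to a RefSeq gene table (GRCm38.p6), which named 32994 probes for 22911 genes. Slc35b2 and Ly6g, of the lists used, were not named there. The array design rests on another build, so probe coordinates are not given. A gene was tested when every array of 1 group or both, 3 each, showed its probe well above background. Groups were compared with limma 3.58.1 in R 4.3.3 (lmFit and eBayes) on all genes, with Benjamini-Hochberg adjustment at 0.05, and single genes by an exact two-sided permutation test. The fit was tested on simulated data. Each array is 1 mouse, so p-values measure the spread between mice.

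The 10 genes and the lists were chosen with earlier results of these data known. Genes named are those 10, pathway genes that passed the adjustment or whose groups did not overlap, the largest change in each direction of each list above 0.5 log2 units, and the 3 genes nearest in pattern to the most variable core protein. Alternatives were the authors' table (alone, with the slide as a block, without each array), both exchanged arrays left out, normexp with an offset of 50 on median spot signals, quantile normalization, another percentile, no and stricter filters, the mean of probes, the slide or replicate number as a block, values within slides, each array left out and the methods' t-test with its thresholds (fold 2 or 0.5, P 0.01).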

Additional observations from a re-analysis of the deposited data

How the results depend on the processing

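None of the 10 genes passed the adjustment in any alternative run. By the table slide 2 held no saline array, so with the slide as a block there, rhTM was rhTM replicate 1 alone against 3 saline arrays, assumed to vary like them, and those values and calls rest on 1 mouse. Without rhTM replicate 1 the table's groups lay on separate slides, so slide and group cannot be told apart. Genes passing over the whole array, 0 by the scanner output, numbered 432 by the authors' table once the slide was a block and 1 both within slide 1 and with the exchanged arrays left out. Leaving out each array gave 0 to 3 by the scanner output (3 without saline replicate 1, 2 without rhTM replicate 1) and 0 to 589 by the table (1 without saline replicate 1, 589 without rhTM replicate 1). Of the 10, the number whose groups did not overlap was 1 by the table, with or without the slide (Dcn, 21.7% of all genes), 5 without the exchanged arrays (41.5%), 1 with normexp (Vcan, 5.6%), 1 with the mean of probes (Chst11, 6.04%) and 1 within slide 1 (Xylt2, 26.8%). With each array left out it was 0 to 4 by the scanner output and 1 to 5 by the table, both highest without rhTM replicate 2 (24.5% and 34.8% of all genes). Pathway genes passing numbered 3 by the table once the slide was a block (Adamts4 at 2.33, adjusted p = 0.0308, Chst3 at -1.95, 0.0366, and Esm1 at 1.33, 0.0439, in limma) and 0 to 3 with each array of the table left out, the 3 without rhTM replicate 1 being Chst3, Spock1 and Tnfaip6. As scanned, Esm1 was at 0.39 and Spock1 at -0.00013, by the table they were at 0.58 and 0.91, and the groups overlapped in each case. The Esm1 log2 signal was 2.02 on rhTM replicate 1 and 0.51 to 0.99 on the other arrays. Spock1 read 1.42 on saline replicate 1 and 1.82 on rhTM replicate 3, as scanned, and -0.17 to 0.36 on the other arrays.

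Log2 differences changed sign as follows. By the table they were 0.49 for Dcn, -0.12 for Chsy1, 0.45 for Adamts5 and -0.39 for Adamts15. With the slide as a block there, they were 0.58 for Dcn, -0.13 for Chsy1, -0.014 for Adamts9, -0.12 for Cspg5 and -0.51 for Adamts15. Without the exchanged arrays they were 0.28 for Dcn, -0.042 for Chsy1 and -0.28 for Adamts15. Adamts15 was also at -0.030 with normexp and with quantile normalization, -0.016 with the other percentile and -0.075 within slide 1, where Cspg5 was at -0.29. Within slide 2, Xylt2 was at 0.16 and Papss1 at 0.066. The cause was not tested.

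Leaving out each array of the scanner output gave ranges of -0.31 to 0.14 for Dcn, -0.43 to 0.00030 for Bgn, -0.029 to 0.42 for Srgn, -0.16 to -0.011 for Xylt1, -0.092 to 0.0065 for Xylt2, -0.00085 to 0.11 for Chsy1, -0.93 to 0.028 for Chst11, -0.084 to 0.51 for Chst15, -0.17 to 0.96 for Cspg5, -0.82 to -0.28 for Adamts5, -0.18 to 0.17 for Adamts15 and -0.16 to 0.029 for Papss1. By the table they were 0.034 to 0.23 for Vcan, 0.33 to 0.64 for Dcn, -0.22 to 0.21 for Bgn, 0.17 to 0.50 for Srgn, -0.12 to 0.078 for Xylt1, -0.090 to 0.0093 for Xylt2, -0.17 to -0.069 for Chsy1, -0.95 to -0.0028 for Chst11, -0.0058 to 0.54 for Chst15, 0.094 to 0.28 for Bpnt2, 0.37 to 0.99 for Adamts1, 0.53 to 1.52 for Adamts4, -0.10 to 0.26 for Adamts9, -0.18 to 0.96 for Cspg5, 0.15 to 0.69 for Adamts5, -0.46 to -0.30 for Adamts15 and -0.25 to -0.12 for Papss1.

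Replicate numbers did not pair the samples: the correlations of deviations between same-numbered arrays were -0.30, 0.44 and -0.45. The replicate block left 0 of the 10 and 0 of all genes past the adjustment. Groups of 3 arrays, with 95% intervals as wide as -1.76 to 0.58 (Chst11), limit what differences could be seen.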

Other observations

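Marker lists of further cell types are given in summed multiples of the 75th percentile, as scanned. Endothelial markers lay at 203 to 209 on the saline arrays and 196 to 197 on the rhTM arrays, with 4 of 8 higher in mean with rhTM. By the authors' table the ranges were 196 to 209 and 196 to 203, and 2 of 8 were higher. Most of the endothelial sum was Ramp2 and Cldn5. On rhTM replicate 1, Ramp2 was at its lowest of the 6 arrays, 49.3, and Cldn5 at its highest, 93.7. Smooth muscle and pericyte markers lay at 47.1 to 82.5 and 53.0 to 87.0, with 5 of 8 higher, and by the table at 47.1 to 56.2 and 53.0 to 87.0, with 4 of 8 higher. Alveolar epithelial markers lay at 1189 to 1703 and 1128 to 1491, with 1 of 8 higher, and by the table at 1189 to 1330 and 1128 to 1703, with 5 of 8 higher. T and natural killer cell markers lay at 36.8 to 64.2 and 29.5 to 67.2, with 2 of 8 higher, and by the table at 29.5 to 58.7 and 60.7 to 67.2, with 5 of 8 higher. Most of that sum was Gzma and Cd4, and Cd4 stood at 22.6 and 19.4 on the 2 arrays of slide 2 (saline replicate 1 and rhTM replicate 3, as scanned) against 3.01 to 4.19 on the other arrays.

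Of 7 markers of airway cartilage, a tissue rich in chondroitin sulfate, 2 were tested. Matn1, Matn3 and Cnmd were not well above background on any array, and Acan was likewise not. Col2a1, the cartilage collagen, read 0.54, 0.13 and -0.45 in log2 signal on the saline arrays and -0.64, 0.33 and 1.49 on the rhTM arrays, highest on rhTM replicate 3, a log2 difference of 0.32. By the table that difference was 0.46, with rhTM replicate 3 again the highest. Chad, a cartilage matrix protein, read -1.37, -0.73 and -1.24 on the saline arrays and -1.84, -1.88 and -0.77 on the rhTM arrays, highest on saline replicate 2, a log2 difference of -0.38. By the table the Chad difference was -0.043.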
